A study of Homo sapiens with 24 samples.

Results

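The human mitochondrial genome carries 37 genes, and all of them were found among the 60675 genes listed for each library, by the rule that the gene symbol starts with MT-. They are 13 messenger RNAs, 2 ribosomal RNAs and 22 transfer RNAs. Their levels were followed in HCT116, a human colon cancer cell line, in 3 versions labelled by p53 status: wild type, mutant and null. Every line had a solvent group, a group with APR-246 at 20 uM, a group irradiated with 6 Gy, and a group pretreated with the compound and then irradiated, here called the combination. Collection was 72 hours after irradiation. APR-246 is a small molecule whose breakdown product binds thiol groups. Each of the 12 groups had 2 libraries, 24 in all. Nothing in the labels says that the 2 libraries came from separate cultures, so p-values measure only the spread between these libraries, and each p53 status is 1 line. All lines grew in McCoy 5A medium with 10% fetal bovine serum, and RNA was enriched on oligo(dT) beads, which select polyadenylated RNA.

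Mitochondrial DNA is a small circle that is transcribed from both strands into long precursors, which are cut mainly at the transfer RNAs that lie between the other genes. The mRNAs encode core subunits of the respiratory chain and of ATP synthase, and the rRNAs and tRNAs serve the ribosomes that translate them inside the organelle. Most of these mRNAs receive short poly(A) tails, whereas the only mRNA of the light strand, MT-ND6, is known to have little or no tail, and mature tRNAs have none, so that oligo(dT) selection bears on all levels reported here.

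Library facts touched several results. The 24 libraries held 53184139 to 58058729 reads, and all deposited values corresponded to whole reads within 0.05 reads. The epithelial markers EPCAM (58.2 to 224.9 CPM, reads scaled to the depth of the library), KRT8 (2355 to 9283 CPM) and CDX2 (27.75 to 65.21 CPM) were present in every library, whereas VIL1 (at most 1.523 CPM) and LGALS4 (at most 0.7521 CPM) were nearly absent. CDH1 had 13.16 to 163.2 CPM. The 7 blood markers summed to 0.278 to 3.011 CPM, and of the 8 fibroblast and endothelial markers COL1A1 had 11.55 to 67.93 CPM and VWF 0.4819 to 3.389 CPM, while the other 6 had at most 1.205 CPM. Libraries numbered 1 stood apart from those numbered 2: the TMM scaling factor was higher in replicate 1 in 11 of 12 groups, and so was the mitochondrial mRNA share.

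MT-ATP6, the proton channel subunit of ATP synthase, was the most abundant member per length, at a mean of 14035 CPM per kilobase over the 24 libraries. The cytochrome c oxidase subunits followed, with MT-CO1 at 10961, MT-CO2 at 10670 and MT-CO3 at 9713 CPM per kilobase. Among them stood MT-RNR2, the large ribosomal RNA, at 10383 CPM per kilobase. Its partner MT-RNR1, the small ribosomal RNA, had only 1811 CPM per kilobase. The subunits of complex I, the NADH dehydrogenase, spanned 1748 CPM per kilobase for MT-ND4L to 6225 for MT-ND4, with MT-ND1 at 3362, MT-ND2 at 2665, MT-ND6 at 2542, MT-ND3 at 2452 and MT-ND5 at 1951. MT-CYB, the only complex III subunit encoded in the organelle, had 4587 CPM per kilobase. MT-ATP8, a small accessory subunit of ATP synthase, had the lowest level of the mRNAs, 1270 CPM per kilobase.

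**Figure D1:**
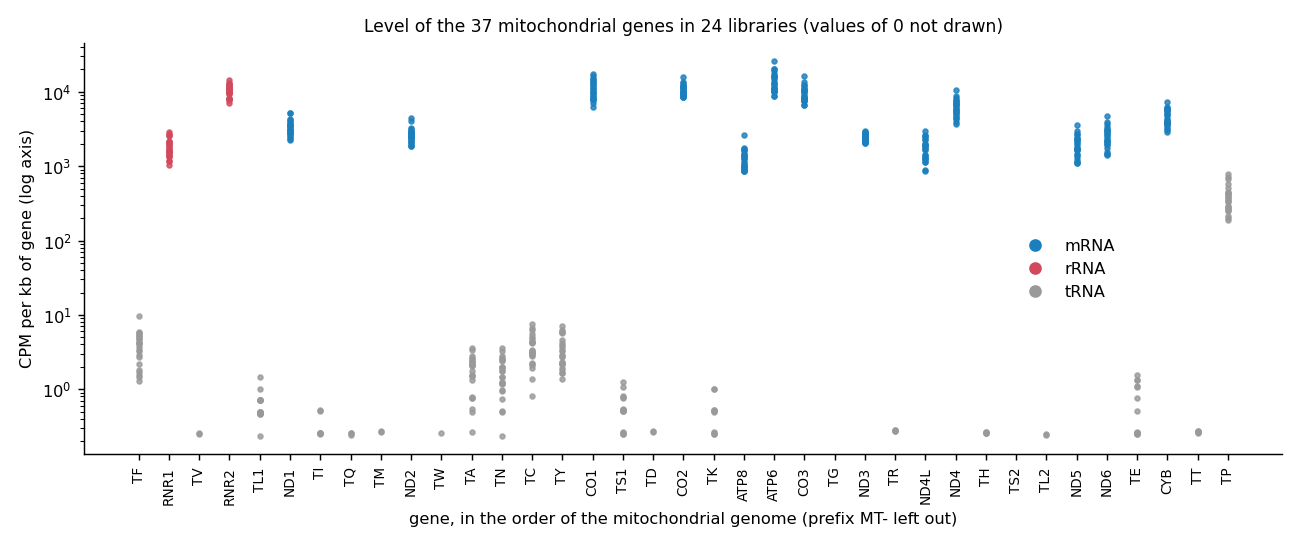
Level per kilobase of gene length (CPM per kilobase, log axis) for mitochondrial genes in genome order, 1 point per library. The mRNAs and rRNAs lie above 1000 on average, MT-TP averages 393, and MT-TF, MT-TC and MT-TY average 3.96, 3.69 and 3.42.

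Neighbouring mRNAs can share bases on a common transcript, and a read in the shared stretch cannot be given to 1 of the 2 genes. The end of MT-ATP8 and the start of MT-ATP6 share 46 bases, and the end of MT-ND4L and the start of MT-ND4 share 7. The stretches below are shown because the counts of the shorter genes depend on them. They are from the GRCh38 mitochondrial sequence with GENCODE 29 gene positions, on the plus strand, and capitals mark the shared bases.
MT-ATP8 end, chrM:8513-8572: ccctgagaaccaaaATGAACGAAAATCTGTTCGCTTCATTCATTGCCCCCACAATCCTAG
MT-ND4L end, chrM:10737-10766: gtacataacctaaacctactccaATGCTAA
The levels of MT-ATP8 and MT-ND4L are uncertain for this reason. The strand setting of the counting is not given in the sources used here, so reads of MT-ND6 and of transcripts of the opposite strand across it cannot be told apart, and the same holds for the light-strand tRNAs.

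A single tRNA gene supplied almost all tRNA reads. MT-TP, the proline tRNA, which lies on the minus strand beside the control region, had 35708 reads over the 24 libraries, 95.953% of all tRNA reads, and the other 21 tRNAs had 1506 reads together. MT-TF, the phenylalanine tRNA on the other side of the control region, came second with 376 reads. The sequences of these genes and of MT-TC and MT-TY, which read the cysteine and tyrosine codons, are shown because MT-TP carries the tRNA result and the other 3 had the most reads after it. Each is written 5′ to 3′ on its own strand, without capitals because no stretch was singled out.
MT-TP, chrM:15956-16023, minus strand: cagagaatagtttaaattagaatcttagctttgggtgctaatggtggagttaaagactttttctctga
MT-TF, chrM:577-647, plus strand: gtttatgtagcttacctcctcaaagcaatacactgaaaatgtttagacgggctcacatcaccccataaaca
MT-TC, chrM:5761-5826, minus strand: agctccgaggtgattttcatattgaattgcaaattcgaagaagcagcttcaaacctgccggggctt
MT-TY, chrM:5826-5891, minus strand: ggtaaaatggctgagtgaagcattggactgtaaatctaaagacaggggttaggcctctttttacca
Position on the genome went with the read number. The 4 tRNAs beside a gap of more than 10 bases, MT-TN, MT-TC, MT-TY and MT-TK, had 20 to 326 reads over the 24 libraries, with a median of 234.5. The 16 tRNAs with both neighbours within 10 bases had 0 to 161 reads, with a median of 3.5. MT-TG and MT-TS2 were at 0 reads in every library, which allows up to 0.0517 to 0.0564 CPM per library (3 reads, counting error only), and MT-TW had 1 read. In all, 10 tRNAs had 1 to 9 reads and 10 had 10 or more. Without MT-TP, the light-strand tRNAs had 1034 reads and the heavy-strand tRNAs 472. The reads were 100 bases long, longer than these tRNA genes, and whether a read belongs to a mature tRNA or to a longer RNA that crosses the gene was not tested.

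The 13 mRNAs together took 4.62% to 11.3% of each library, with a median of 6.22%, the 2 rRNAs 1.31% to 2.42% (median 1.82%) and the 22 tRNAs 0.00137% to 0.00557%. In the wild-type line the mRNA share was 8.69% and 5.31% in the solvent libraries (replicates 1 and 2), 7.53% and 6.28% with APR-246, 9.18% and 6.94% after irradiation, and 11.3% and 9.24% with the combination. The combination mean was 1.46 times the solvent mean, and both of its libraries lay above both solvent libraries. With any 1 of these 4 libraries left out the ratio was 1.18 to 1.93. The mutant shares were 7.63% and 5.53% in solvent, 8.14% and 4.63% with APR-246, 7.93% and 7.53% after irradiation, and 7.25% and 5.79% with the combination. The null shares were 5.88% and 5.01% in solvent, 5.32% and 5.58% with APR-246, 6.16% and 5.48% after irradiation, and 5.50% and 4.62% with the combination. The wild-type combination was the only 1 of these 9 comparisons with solvent whose groups did not overlap. The rRNA share was lower without overlap in 4 of 9 comparisons: wild type with APR-246 (0.846 times solvent) and irradiation (0.914), mutant with APR-246 (0.851) and the combination (0.855). In these bulk samples fewer cells of a kind and less RNA per cell cannot be told apart, nor can more mitochondrial RNA and less of the other RNA.

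**Figure D2:**
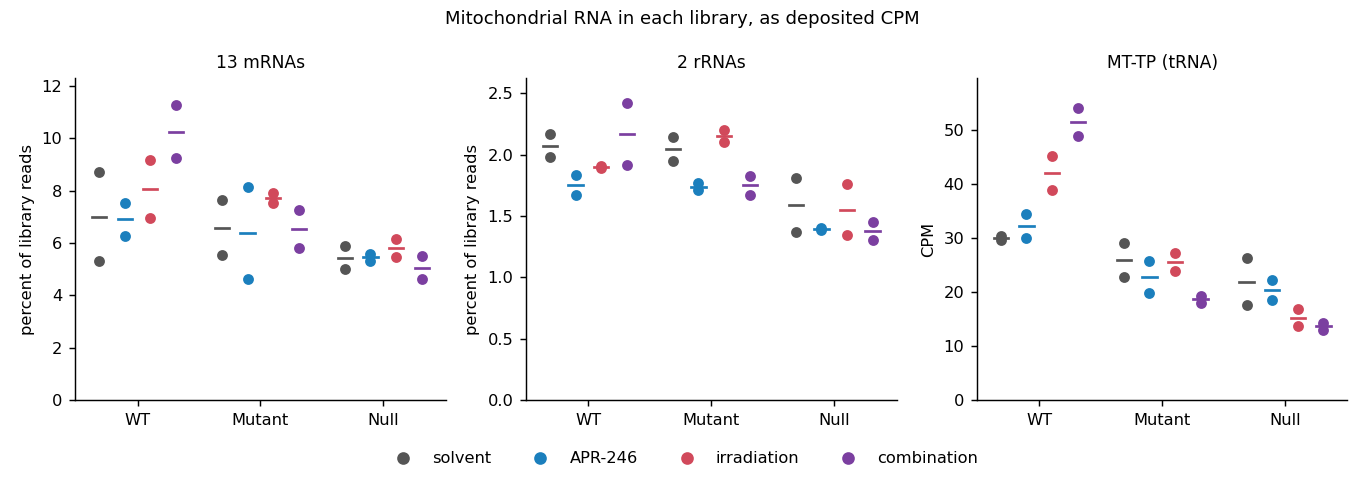
Share of each library (percent of all counted reads) taken by the mitochondrial mRNAs and rRNAs, and CPM of the tRNA MT-TP, by line and treatment, 1 point per library. The mRNA share of the wild-type combination, 11.3% and 9.24%, lies above both wild-type solvent libraries, 8.69% and 5.31%, and in the other 8 treated groups the mRNA points overlap those of solvent.

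For tests, the values were scaled by TMM, which evens out differences in library make-up, and log2(CPM + 0.5) was fitted with limma in 20 comparisons. A gene was tested if it passed a filter on low values, which 21 members did: the 13 mRNAs, both rRNAs and the tRNAs MT-TA, MT-TC, MT-TF, MT-TN, MT-TP and MT-TY. Calls were made at an adjusted p of 0.05, with Benjamini-Hochberg adjustment over the 20668 genes tested. By limma, 0 of the 21 members were called in any of the 20 comparisons, and 5 of these tests had an unadjusted p under 0.05: MT-ATP8 and MT-ND6 in the wild-type combination, MT-TA for APR-246 and MT-ND6 for irradiation averaged over the lines, and MT-TY for the combination against irradiation in the mutant. Few genes of any kind were called within lines: 0%, 1.56% and 2.23% of all genes tested for APR-246, irradiation and the combination in wild type, 0%, 0.0774% and 0.348% in the mutant, and 0.131%, 0.677% and 1.95% in null. Averaged over the 3 lines the background was 3.14% for APR-246, 13% for irradiation and 13.9% for the combination. edgeR called 0 members, and DESeq2 called 3: MT-ND6 in the wild-type combination (4.83% of all genes), and MT-ND6 and MT-ND4 for irradiation averaged over the lines (18.4%). Among mRNAs and rRNAs, standard errors within a line were wide, 0.27 for MT-ATP8 to 0.53 for MT-RNR1 on the log2 scale.

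A covariate for gene GC content changed the number of calls, and whether it removes technical or treatment differences was not tested. The slope of each library's values on gene GC content, entered as a covariate in limma, gave 33 calls in the 20 comparisons. In the wild-type line it called 2 members for irradiation (18% of all genes) and 10 for the combination (21.6%). The 10 were MT-RNR1, MT-ND1, MT-ND2, MT-ATP8, MT-ATP6, MT-ND4, MT-ND5, MT-ND6, MT-CYB and MT-TP, all higher. The mutant line had 3 called higher for irradiation (13.5%) and 2 lower for the combination (16.5%), and the null line 1 lower (20%) and 2 lower (24.6%). Averaged over the lines it called 1 for APR-246 (27.4%), MT-RNR2, which was lower, 5 for irradiation (37.3%), of which 4 were higher and 1 lower, and 6 for the combination (43.8%), of which 4 were higher and 2 lower. Between mutant and null solvent it called MT-CYB alone (15.8%). On the deposited CPM, limma called MT-ND2 in the wild-type combination (2.6% of all genes) and for irradiation averaged over the lines (12.7%), and MT-RNR1, MT-ND1 and MT-ND2 for the combination averaged over the lines (15.2%).

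MT-ND6 had the highest log2 difference of the mRNAs after irradiation in the wild-type line and MT-ND2 in the mutant line, while the complex I mRNAs MT-ND3 and MT-ND4L had 0.15 and 0.15 in wild type and 0.25 and 0.20 in the mutant. MT-ND6 stood at 1610 and 749 CPM in the wild-type solvent libraries, 2078 and 1277 after irradiation and 2488 and 1968 with the combination, so that the combination lay above solvent, and irradiation overlapped it on the deposited CPM but lay above it on the scaled values. On the scaled values its log2 difference from solvent was 0.57 ± 0.32 (SE) for irradiation and 0.75 ± 0.32 for the combination (limma adjusted p = 0.310). Mutant libraries had 1431 and 929 CPM of it in solvent and 1654 and 1470 after irradiation, a log2 difference of 0.53 ± 0.32. Averaged over the 3 lines, MT-ND6 after irradiation had a log2 difference of 0.45 ± 0.19 (limma adjusted p = 0.128). With the replicate number as a block, which this average allows since same-numbered libraries deviated together, the adjusted p was 0.0249, where 32.8% of all genes were called.

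MT-ND2, MT-ND5 and MT-ND1 lay close by. MT-ND2 was 3053 and 1928 CPM in wild-type solvent and 4661 and 4272 CPM with the combination, without overlap, a log2 difference of 0.61 ± 0.36. The mutant values were 2549 and 1975 CPM in solvent and 3123 and 3315 CPM after irradiation, also without overlap, with a log2 difference of 0.61 ± 0.36. Over the 3 lines the combination gave 0.40 ± 0.21 (limma adjusted p = 0.232), and 0.0495 as the adjusted p with the replicate block, under which 29.6% of all genes were called. MT-ND5, at 4511 and 2005 CPM in wild-type solvent, had 6511 and 4963 CPM with the combination, and its log2 difference was 0.65 ± 0.36. MT-ND3 differed in sign there: it was 1024 and 734 CPM in solvent and 956 and 716 CPM with the combination, which overlapped on the deposited CPM and lay below solvent on the scaled values, with a log2 difference of -0.33. None of these values passed the limma test on the scaled values without the block or the GC slope.

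Of the other complexes, MT-ATP8 came closest to a call within a line by limma on the scaled values without a covariate. It was 281 and 197 CPM in wild-type solvent and 545 and 364 CPM with the combination, without overlap, and its log2 difference was 0.65 ± 0.27 (limma adjusted p = 0.287). Neither MT-ATP6, MT-CO1 nor MT-CYB was called in that fit. With the GC slope MT-ATP8, MT-ATP6 and MT-CYB were called higher in the wild-type combination (21.6% of all genes). MT-ATP6 was 12880 and 7008 CPM in solvent and 17480 and 13706 CPM with the combination. MT-CO1 was 24901 and 14787 CPM in solvent and 27173 and 22810 CPM with the combination, and its groups overlapped. MT-CYB had 5751 and 4080 CPM in solvent and 8370 and 7092 CPM with the combination.

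Set side by side, the 13 mRNAs lay mostly to the higher side after irradiation in 2 of the lines. Their median log2 difference from solvent was 0.30 in the wild-type line, with 13 of 13 positive, 0.39 in the mutant line, with 13 of 13, and -0.01 in the null line, with 5 of 13. On the scaled values, both irradiated libraries lay above both solvent libraries for 9 mRNAs in the wild-type line, where 16.5% of all genes did so, for 12 in the mutant line (21.1%) and for 2 in the null line (18.8%). With APR-246 the medians were -0.07, 0.01 and -0.11 in the wild-type, mutant and null lines, and the mRNAs above solvent without overlap numbered 0 (background 8.5%), 1 (11.9%) and 2 (18.6%). With the combination the medians were 0.44, -0.01 and -0.06, and the mRNAs above without overlap numbered 9 (21.3%), 1 (18.4%) and 0 (18.3%). Below solvent without overlap lay 0, 0 and 1 mRNAs after irradiation, in the same order of lines. These numbers were 5, 0 and 5 with APR-246 and 1, 1 and 5 with the combination. For the counts below solvent the share of all genes is not given here. The 3 treatments of a line were set against the same solvent libraries, and the 13 mRNAs come from shared precursors, so neither the treatments nor the genes are independent. On the deposited CPM without TMM scaling the wild-type combination median was 0.70, where the median of all genes was 0.19, the irradiation medians were 0.30, 0.29 and 0.15 in the same order of lines, and the APR-246 medians turned sign, to 0.04, -0.05 and 0.06. Without this scaling all 13 mRNAs of the irradiated wild-type libraries overlapped solvent, such as MT-CYB (5751 and 4080 CPM, then 6817 and 5687 CPM). In the mutant line MT-CO1, MT-CO3, MT-ATP6, MT-ATP8, MT-ND4, MT-ND4L and MT-ND5 overlapped after irradiation, and the other mRNAs lay above solvent. In the null line MT-ND5 and MT-ND6 overlapped, and MT-ND1, MT-ND2, MT-CO2 and MT-CYB lay above.

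**Figure D3:**
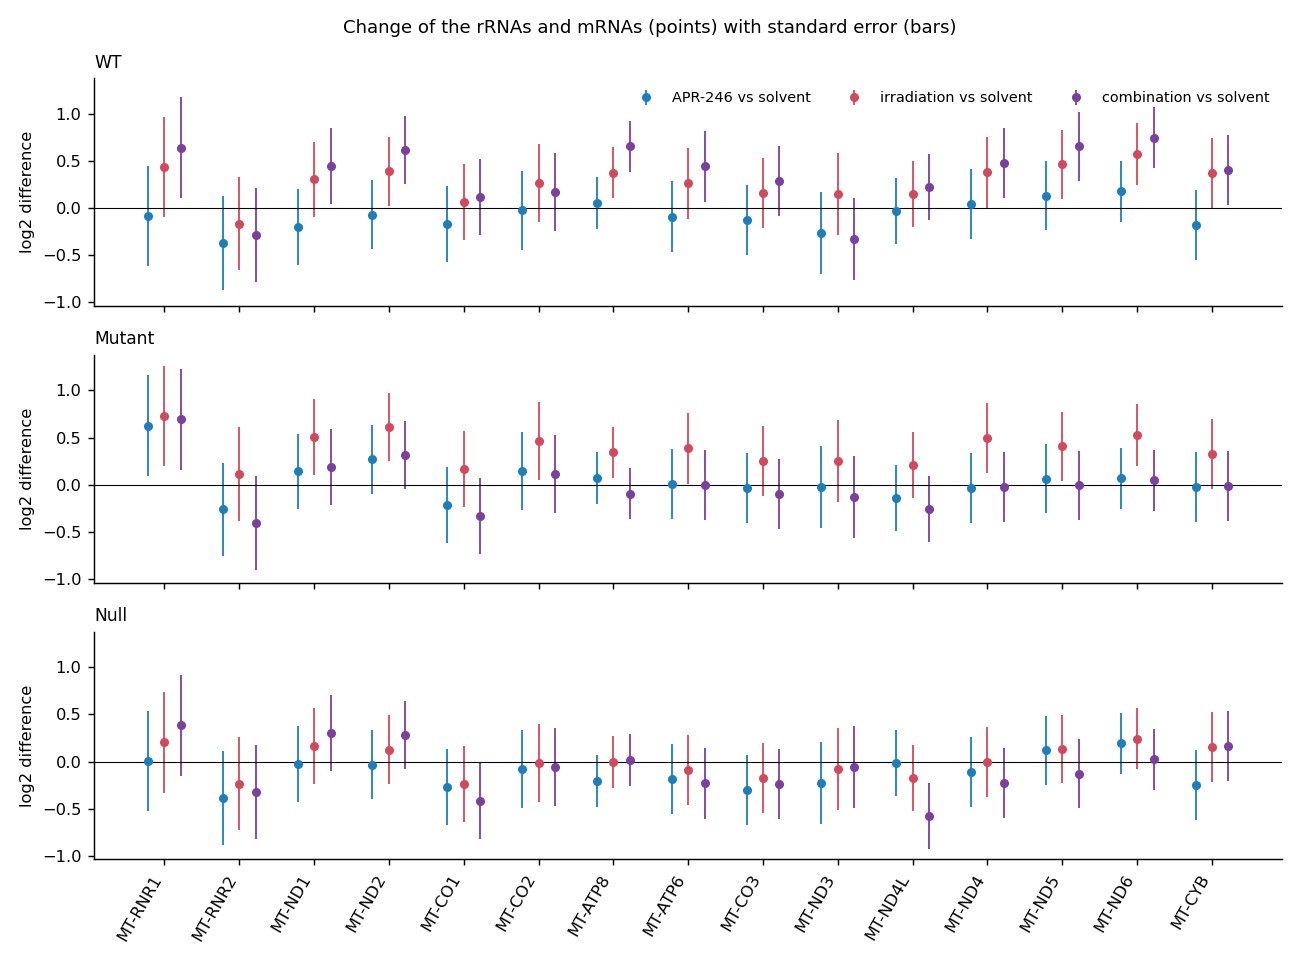
Log2 difference from solvent of the 13 mitochondrial mRNAs and 2 rRNAs in each line and treatment, on TMM-scaled values, with limma standard errors. The wild-type combination values of MT-ND6 (0.75) and MT-ATP8 (0.65) are among the highest of the mRNAs, and none of the differences was called by limma without a covariate.

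Adding APR-246 to irradiation gave no member calls in any line by limma, where 0% of all genes were called too. On the scaled values the mutant line had 0 of 13 mRNAs positive for the combination against irradiation, with a median of -0.39. There 11 of 13 lay below without overlap (14.5% of all genes did). In the wild-type line the median was 0.13 and in the null line -0.07, with 2 and 0 of 13 above without overlap (22.8% and 8.87% of all genes). On the deposited CPM the mutant median was -0.23 where that of all genes was 0.12. In the mutant line MT-ATP6, MT-CO3, MT-ND4L, MT-ND5 and MT-ND6 overlapped on the deposited CPM, while MT-ND1 and MT-ND3 joined those below.

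The lines were set against each other in solvent, where standard errors of the mRNAs and rRNAs were 0.27 to 0.53 on the log2 scale. At this spread a lack of calls does not show that the lines are alike. Of the 21 members, 0 were called by limma between wild type and null (0.992% of all genes called), mutant and null (2.5%) or mutant and wild type (0.629%), and 0 of these tests had an unadjusted p under 0.05. The log2 difference of wild type from null was positive for 13 of 13 mRNAs, with a median of 0.17. MT-CYB took 8.21% and 9.004% of the mitochondrial mRNA in mutant solvent, against 6.62% and 7.69% in wild type and 6.50% and 6.92% in null. The response to irradiation was also compared between lines. Wild type minus null gave a median of 0.32 over the mRNAs, mutant minus null 0.38, with 13 of 13 positive in both, and 0 members were called by limma (0.029% and 0% of all genes). Both of these use the same null libraries, and on the deposited CPM the medians were 0.16 and 0.13, with 12 of 13 positive.

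Shares within the mitochondrial mRNA do not depend on library scaling. These ratios were chosen after their values were seen and are given as a description, with no test. MT-CO1, the catalytic subunit of cytochrome c oxidase, took a smaller share of the mitochondrial mRNA than in solvent in all 9 comparisons, without overlap, at 0.835 to 0.946 times the solvent share. In the wild-type line it took 28.6% and 27.9% in solvent, 27.3% and 26.2% with APR-246, 24.8% and 25.2% after irradiation, and 24.1% and 24.7% with the combination. The mutant line had 28.1% and 27.9% in solvent, 25.9% and 23.4% with APR-246, 24.4% and 25.2% after irradiation, and 23.7% and 23.0% with the combination. The null line had 26.1% and 24.6% in solvent, 23.1% and 24.1% with APR-246, 22.4% and 22.5% after irradiation, and 21.6% and 21.0% with the combination. The combination libraries were the lowest of the wild-type and null lines. MT-CO3 had a smaller share without overlap in 5 of 9 comparisons and MT-CO2 in 0 of 9.

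**Figure D4:**
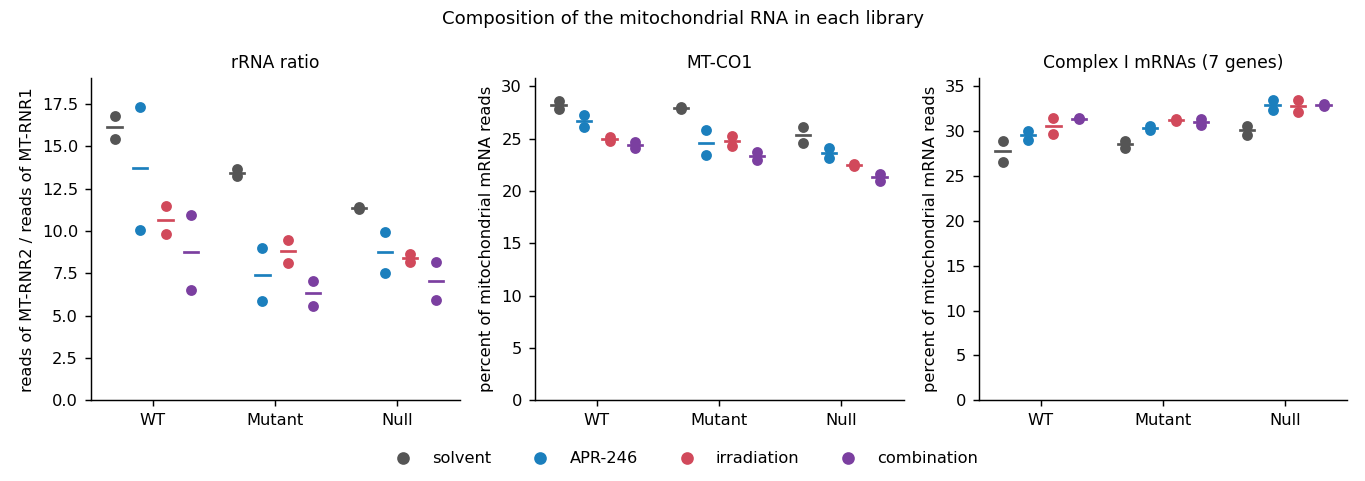
MT-CO1 as a percent of the mitochondrial mRNA and the ratio of MT-RNR2 to MT-RNR1, by line and treatment, 1 point per library. The MT-CO1 points of every treated group lie below both solvent points of the line, and the rRNA ratio does so in 8 of 9 treated groups.

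The complex I mRNAs took the larger share in turn, which follows in part since shares sum to a whole. Together they made up 26.6% to 30.6% of the mitochondrial mRNA in the solvent libraries and 28.98% to 33.5% in the treated ones, higher than the solvent libraries of the same line in 9 of 9 comparisons, at 1.064 to 1.130 times. MT-ND2 was higher without overlap in 6 of 9 and MT-ND6 in 4 of 9. The MT-ND2 share was 3.34% and 3.58% in mutant solvent and 4.16% and 4.91% with the combination, and 3.72% and 4.04% in null solvent against 4.75% and 5.85%. MT-ND4 and MT-ATP8 were higher in 4 of 9 each, MT-ND5 in 2 of 9. MT-ND1 was higher in the null combination (1.40 times) and lower in wild type with APR-246 (0.926 times), both without overlap. MT-ND3 was lower in the wild-type combination, at 0.635 times solvent, and MT-ND4L in the null combination, at 0.750 times. MT-CYB was higher in the null line after irradiation (1.16 times) and with the combination (1.26 times), and lower with APR-246 (0.943 times). MT-ND2 also had the larger share in replicate 2 in 12 of 12 groups, and MT-ND6 in replicate 1 in 11 of 12, so part of their spread goes with the replicate number. The slope of library values on gene GC content per 10 percent ran from -0.650 to 0.343 in solvent and -0.461 to 0.596 in treated libraries, and its part in these shares was not tested.

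**Figure D5:**
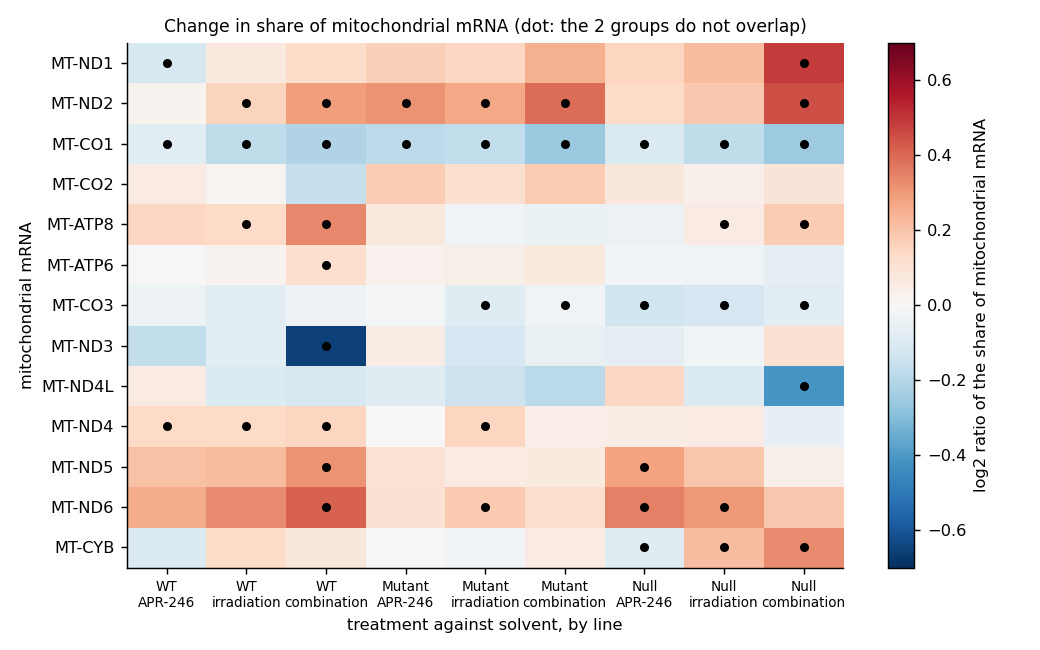
Share of each mRNA in the mitochondrial mRNA relative to solvent (ratio of means), by line and treatment. MT-CO1 lies below 1 in all 9 comparisons, between 0.835 and 0.946, and MT-ND2 lies between 1.016 and 1.366.

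The 2 ribosomal RNAs lie next to each other on the same strand and their ratio differed between treatments. MT-RNR2 exceeded MT-RNR1 15.5 and 16.8 times in wild-type solvent, 11.5 and 9.81 times after irradiation and 10.96 and 6.53 times with the combination. The mutant ratio was 13.6 and 13.2 in solvent, 8.97 and 5.86 with APR-246, 9.48 and 8.12 after irradiation and 7.04 and 5.59 with the combination. The null ratio was 11.4 and 11.3 in solvent, 9.95 and 7.52 with APR-246, 8.63 and 8.17 after irradiation and 8.16 and 5.94 with the combination. It was lower than in solvent without overlap in 8 of 9 comparisons, at 0.470 to 0.849 times, and only wild type with APR-246, at 17.3 and 10.03, overlapped. Replicate 1 had the higher ratio in 11 of 12 groups. MT-RNR1 was 1317 and 1113 CPM in wild-type solvent and 2022 and 2540 CPM with the combination, and 1467 and 1365 CPM in mutant solvent against 2075 and 2777 CPM, without overlap in both. Over the 3 lines the log2 difference of MT-RNR1 from solvent was 0.45 ± 0.31 for irradiation (limma adjusted p = 0.355, with the replicate block 0.0305) and 0.57 ± 0.31 for the combination (limma adjusted p = 0.251, with the replicate block 0.00952). MT-RNR2 had 11203 to 22154 CPM over all libraries. Neither rRNA carries a long poly(A) tail, and the part of oligo(dT) selection in the ratio was not tested.

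MT-TP was the only tRNA with enough reads to follow by treatment, and its treated libraries lay on different sides of solvent in the 3 lines. In the wild-type line it was 30.4 and 29.8 CPM in solvent, 30.04 and 34.5 with APR-246, 38.9 and 45.3 after irradiation, and 54.2 and 48.9 with the combination. Mutant libraries held 29.2 and 22.9 CPM in solvent, 25.8 and 19.9 with APR-246, 27.4 and 24.01 after irradiation, and 18.1 and 19.4 with the combination. In the null line it was 17.6 and 26.3 CPM in solvent, 22.3 and 18.5 with APR-246, 13.7 and 17.0 after irradiation, and 14.4 and 13.01 with the combination. On the deposited CPM, irradiated and combination libraries lay above solvent in the wild-type line and below it in the null line, and in the mutant line the combination lay below. On the scaled values only the combination kept its groups apart, in the wild-type and mutant lines, and wild-type irradiation and both null groups overlapped solvent. The scaled log2 differences were 0.48 ± 0.38 for irradiation and 0.50 ± 0.38 for the combination in wild type, -0.52 for the combination in the mutant, and -0.64 and -0.69 for irradiation and the combination in null. The irradiation response of wild type minus null was 1.11 ± 0.54 (limma adjusted p = 1.0). With the GC slope, limma called MT-TP higher in the wild-type combination (0.67) and lower in the mutant combination (-0.71), after irradiation in null (-0.73) and in the null combination (-0.84).

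Nuclear genes for the same machinery were read from lists of known factors, averaged over the 3 lines. SLC25A4, the ATP and ADP carrier of the inner membrane, rose in all 3 treatments: by 0.57 ± 0.14 on the log2 scale with APR-246 (limma adjusted p = 0.0332), 0.78 after irradiation (adjusted p = 0.0019) and 0.80 with the combination (adjusted p = 0.0012). In the null line it went from 35.2 and 29.7 CPM in solvent to 65.0 and 45.1 CPM after irradiation. TK2, the thymidine kinase of the organelle, fell by 0.59 with APR-246 (adjusted p = 0.0156), by 0.65 after irradiation (adjusted p = 0.00286) and by 0.76 with the combination (adjusted p = 0.000796). Mutant TK2 was 28.2 and 20.4 CPM in solvent and 14.6 and 11.8 CPM after irradiation. These 2 were the genes called with APR-246 and irradiation among 16 factors for mitochondrial DNA upkeep, where 3.14% and 13% of all genes were called. With the combination (13.9% of all genes) MGME1, a nuclease for replication ends, was called as well, at 0.54 ± 0.16 (adjusted p = 0.0363). The APR-246 call of SLC25A4 was lost in 8 of 12 fits that left out 1 library of the 6 groups compared, and that of TK2 in 3 of 12. The combination call of MGME1 was lost in 8 of 12. TK2 and MGME1 lost their calls on the deposited CPM. There 2 of the 16 factors were called higher and 1 lower for irradiation (12.7% of all genes), and 3 and 1 for the combination (15.2%).

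Of 25 factors for RNA processing and stability, SUPV3L1, the helicase of RNA decay in the matrix, fell in each treatment: by 0.47 with APR-246 (limma adjusted p = 0.0309), 0.56 after irradiation (adjusted p = 0.00427) and 0.47 with the combination (adjusted p = 0.0107). FASTKD5, needed to process mRNA ends that no tRNA of the same strand flanks, as at MT-CO1, rose with the combination by 0.68 ± 0.17 (adjusted p = 0.0119). The list for mitochondrial transcription held 9 genes, among them POLRMT, TFAM and TFB1M. Of these 9, TFB1M, which methylates MT-RNR1, fell with the combination by 0.45 (limma adjusted p = 0.0458). This call was lost in 11 of 12 fits without 1 library and by edgeR. The APR-246 call of SUPV3L1 was lost in 8 of 12. SUPV3L1, FASTKD5 and TFB1M lost their calls on the deposited CPM. There POLRMT was called higher for irradiation (12.7% of all genes). In the same fit 2 RNA processing factors were called higher for irradiation and 2 for the combination (15.2%). With the replicate block POLRMT was called higher for irradiation (32.8% of all genes), as were 2 RNA processing factors, with 5 lower. For the combination with the block (29.6%), 3 RNA processing factors were called higher and 1 lower. Of 8 tested regulators of organelle biogenesis 0 were called by limma on the scaled values without the block. Those with the lowest unadjusted p were NRF1, with -0.40 after irradiation (adjusted p = 0.0704, with the replicate block 0.00344), and TFEB, with 0.82 (adjusted p = 0.104, with the block 0.00183). With the block, 2 of the 8 were called higher and 2 lower for irradiation, and 1 higher and 1 lower for the combination. On the deposited CPM TFEB was called higher for irradiation and for the combination.

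Nuclear subunits that join the mitochondrial ones were read in the same way, where 13% of all genes were called for irradiation and 13.9% for the combination. Of 37 complex I subunits, NDUFB6 rose after irradiation by 0.80 ± 0.23 (limma adjusted p = 0.029) and NDUFS4 fell by 0.57 (adjusted p = 0.0314), both lost in 7 of 12 fits without 1 library. With the combination NDUFB3 (0.61, adjusted p = 0.0167), NDUFB5 (0.52, adjusted p = 0.0281, lost in 8 of 12) and NDUFB6 (0.97, adjusted p = 0.00973) rose. NDUFB3 and NDUFS4 lost their calls on the deposited CPM. With the replicate block, 9 complex I subunits were called higher and 2 lower after irradiation, and 13 higher and 0 lower with the combination, against 32.8% and 29.6% of all genes called in either direction. None of the 9 tested subunits of complex III, 11 of complex IV and 15 of complex V was called by limma without the block. With it, complex III had 1 (UQCR10) and 0 called higher, complex IV 2 and 3, and complex V 3 and 5, for irradiation and the combination. On the deposited CPM 5 complex I, 2 complex IV and 3 complex V subunits were called higher after irradiation (12.7% of all genes called), and 12, 3 and 5 with the combination (15.2%). With the GC slope the balance in complex I turned after irradiation, to 6 higher and 10 lower (37.3%), and with the combination it was 15 higher and 4 lower (43.8%). Named by the lowest unadjusted p, UQCR10 had 0.60 after irradiation, UQCRH 0.27 with APR-246, COX6C 0.33 and COX7B 0.45 with the combination, ATP5MC1 0.82 after irradiation and ATP5MF 0.87 with the combination. The nuclear complex I list had a median log2 difference of 0.24 after irradiation, complex III 0.17, complex IV 0.25 and complex V 0.09, where the median of all genes was -0.01. With the GC slope these medians were -0.03, -0.02, -0.03 and 0.004, where that of all genes was 0.03.

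Copies of mitochondrial genes that lie in the nuclear genome could take reads of the members. Of 404 such copies listed, MTATP6P1 on chromosome 1 had the highest mean, 268 CPM (155 to 474), followed by MTCO1P12 with 38.5 and MTCO2P12 with 8.96 CPM. All copies together had 196 to 583 CPM, far under the CPM of MT-ATP6 alone. The genes whose levels ran most like the median of the mitochondrial mRNAs over the 24 libraries were MTCO1P12 (Pearson r = 0.784), SULF2 (0.775), DUOX1 (0.767), LYNX1 (0.756) and ANXA4 (0.742). These are descriptions over libraries that share lines and replicate numbers, and MTCO1P12 also shares sequence with MT-CO1.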

How the data were processed

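Per the submitters' processing notes, the authors checked reads with FastQC, aligned them with STAR to GRCh38.p13 and counted them with featureCounts (Subread). Versions, annotation and strand setting are not given in the sources used here. The deposited values are CPM per gene in each of 24 libraries, and were not counts. Whole reads were recovered from the CPM (100% of values within 0.05 reads). Of the values of 2 to 9 reads, 74.5% to 81.5% were even. Symbols matched 60419 of 60675 identifiers. The members and all gene lists were chosen with earlier results of these data known.

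TMM-scaled log2(CPM + 0.5) was fitted with limma-trend 3.58.1 in R 4.3.3 over 12 groups of 2 libraries (12 residual degrees of freedom), after a filter at a minimum count of 10, with Benjamini-Hochberg adjustment over 20668 genes and 20 comparisons fitted. TMM came from edgeR 4.0.16. Scripts were tested on simulated data. Library groups came from titles. The check of the line labels by the targeted gene is not reported here. Alternatives were edgeR's quasi-likelihood test and DESeq2 1.42.0 on recovered reads, CPM as deposited, CPM over nuclear genes, pseudocounts of 0.1 and 2, no filter, the lines compared only, a GC slope, a replicate block and leaving out each library.

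Same-numbered libraries deviated together with r over 0.1 in every pair of groups for irradiation and the combination averaged over lines, so block values are printed there. In 11 of 66 pairs r was below 0.1, all with the null APR-246 group, so the numbers were not taken to pair for APR-246 averaged over lines. All mRNAs and rRNAs were named, with the tRNAs highest and lowest in mean CPM, and of each nuclear list the called genes (at most 4), or the 2 with the lowest unadjusted p. The 3 most abundant nuclear copies and the 5 genes most like the mRNAs were named by level and Pearson r.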

Additional observations from a re-analysis of the deposited data

Results flagged for a closer look

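On the scaled values, some genes moved to opposite sides of solvent in both libraries of 2 lines under the same treatment. For the combination, MT-ND5 had a log2 difference of 0.65 in wild type and -0.13 in null, a gap of 0.7805, MT-ND4 had 0.47 and -0.23 (gap 0.6978), and MT-ATP6 had 0.44 and -0.23 (gap 0.6688). MT-TP had 0.50 in wild type and -0.52 in the mutant, a gap of 1.0263. These 4 differences between lines were not tested. On the deposited CPM the null combination overlapped solvent for MT-ND5, MT-ND4 and MT-ATP6, while MT-TP kept its opposite sides. For irradiation, MT-ND4L had 0.20 in the mutant and -0.17 in null, and both lines overlapped solvent on the deposited CPM. This gap of 0.3786 was tested and had a limma adjusted p of 1.0.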

How the results depend on the processing

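Every comparison had 0 of 21 members called by limma, and the count stayed 0 without the filter, with pseudocounts of 0.1 and 2, by edgeR, with only the lines compared and in every fit without 1 library. With the GC slope the counts became 2 for irradiation and 10 for the combination in wild type, 3 and 2 in the mutant, 1 and 2 in null, 1, 5 and 6 for APR-246, irradiation and the combination averaged over lines, and 1 for mutant against null solvent. With the GC slope and replicate block they were 2 and 10 in wild type, 1, 1 and 3 in the mutant (APR-246, irradiation, combination), 1 and 2 in null, 1, 5 and 6 averaged over lines and 1 for mutant against null solvent. The share of all genes called with both, or with nuclear CPM, is not given here, so those counts cannot be set against a background. With the GC slope alone that share was 13.5% to 43.8% in the comparisons with member calls. The replicate block alone gave 2 for irradiation and 2 for the combination averaged over lines, and 0 in every other comparison. A pairing with crossed numbers, added for APR-246 in the null line (r of -0.549), gave 0. DESeq2 gave 1 (MT-ND6) for the wild-type combination and 2 (MT-ND4, MT-ND6) for irradiation averaged over lines. The deposited CPM gave 1, and 1 and 3 averaged over lines, and nuclear CPM 1, and 2 and 3. The cause of these shifts was not tested. Of 6922 alternatives for single members, 84 added a call. On the deposited CPM, 1965 of 2630 genes called for irradiation averaged over lines were higher, against 1413 of 2679 with TMM. Depth limited 12 tRNAs, with fewer than 10 reads in all.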
